A study of Mus musculus with 5 samples.

Results

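Pitx1, Pitx3, Otp, Phox2a, Gsc, Rax and Vsx1 are 7 genes of the paired-like homeobox group, listed by name and taken from 22350 protein-coding genes of the mm9 GENCODE vM1 annotation. All 7 were found, each under a single gene identifier. They were read against H3K27me3 peak lists of mouse embryonic fibroblasts (MEFs) in which trimethylation of histone H3 lysine 27 by Polycomb Repressive Complex 2 (PRC2) had been profiled by chromatin immunoprecipitation and sequencing (ChIP-Seq). The lists came from isogenic lines derived from MEFs that carried a floxed allele of Eed, a PRC2 subunit gene, and that were stably transduced by lentivirus to express 1 of 3 proteins (H3.3 K27R, H3.3 K27M, human EZHIP), at 1 library each. The parental cells and the Eed deletion line, which is a single clone, were not analysed here.

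H3.3 K27M carries methionine at the lysine that PRC2 methylates and, like EZHIP, inhibits the enzyme. In H3.3 K27R that lysine is an arginine, and this line served as the reference. With 1 library per line there was no spread between replicates against which a difference could be tested, and the lists held positions without read counts, so that depth is unknown. A peak list also reports a population of cells, in which fewer cells with the mark and less of the mark per cell cannot be told apart.

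Paired-like homeobox genes encode transcription factors that bind DNA through a homeodomain resembling that of the Pax proteins, often as dimers, and act in the patterning of the head, eye, pituitary, limb and nervous system. In cells where such regulators are silent, their start sites and the DNA around them are commonly held in domains of H3K27me3. PRC2 is recruited to CpG islands, which are stretches dense in CG dinucleotides, and the mark then spreads to neighbouring nucleosomes. As a check on the cell type, 8 genes active in fibroblasts (Col1a1, Col1a2, Col3a1, Thy1, Vim, Prrx1, Twist1 and Pdgfrb) were looked up, and the start sites of 0 of the 8 lay in a peak of any list. Over all protein-coding genes the shares were 30.1% in K27R, 9.02% in K27M and 7.73% in EZHIP, so that with 8 genes the inhibitor lists say little on this. Their nearest K27R peaks were 17.6 to 612.0 kb away.

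The 300 bases around 4 of the start sites are shown because these genes span the outcomes described below, from the widest residual peaks at Otp, through the narrowest that both inhibitor lists shared at Vsx1, to Phox2a with a residual peak in K27M only and Gsc without any peak. Each runs from 250 bases before to 50 bases from the start site, 5′ to 3′ along the gene, in the mm9 build: chr13:95645332-95645631 on the plus strand for Otp, chr2:150515047-150515346 on the minus strand for Vsx1, chr7:108966577-108966876 on the plus strand for Phox2a and chr12:105711488-105711787 on the minus strand for Gsc. Capitals mark every CG dinucleotide, which reads the same on both strands.

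Otp: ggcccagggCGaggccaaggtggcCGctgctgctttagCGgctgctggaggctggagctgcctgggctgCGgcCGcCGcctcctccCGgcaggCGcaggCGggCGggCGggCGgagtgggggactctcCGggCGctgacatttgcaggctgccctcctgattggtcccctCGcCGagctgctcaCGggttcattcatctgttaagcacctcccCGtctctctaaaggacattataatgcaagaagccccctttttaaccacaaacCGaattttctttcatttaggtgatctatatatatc
Vsx1: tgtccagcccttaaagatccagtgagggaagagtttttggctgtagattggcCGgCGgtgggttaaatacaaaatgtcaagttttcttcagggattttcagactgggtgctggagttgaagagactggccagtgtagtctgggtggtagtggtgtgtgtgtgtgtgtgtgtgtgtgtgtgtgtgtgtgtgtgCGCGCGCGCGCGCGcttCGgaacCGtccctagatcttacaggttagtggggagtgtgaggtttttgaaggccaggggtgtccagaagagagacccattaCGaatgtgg
Phox2a: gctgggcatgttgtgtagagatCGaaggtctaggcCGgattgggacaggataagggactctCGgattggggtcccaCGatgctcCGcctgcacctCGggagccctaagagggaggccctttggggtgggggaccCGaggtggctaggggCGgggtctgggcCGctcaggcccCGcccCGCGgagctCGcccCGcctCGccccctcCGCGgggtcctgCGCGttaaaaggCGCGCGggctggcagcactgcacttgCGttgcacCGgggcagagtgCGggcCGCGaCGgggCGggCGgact
Gsc: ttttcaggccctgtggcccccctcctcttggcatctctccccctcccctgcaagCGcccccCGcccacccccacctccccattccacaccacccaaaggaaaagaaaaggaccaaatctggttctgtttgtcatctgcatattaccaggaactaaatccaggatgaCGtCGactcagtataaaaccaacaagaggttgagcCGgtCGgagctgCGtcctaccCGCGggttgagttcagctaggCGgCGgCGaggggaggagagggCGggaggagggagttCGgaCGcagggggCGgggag

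The stretch at Phox2a held 30 CG dinucleotides, that at Otp 19, that at Gsc 16 and that at Vsx1 12. At Vsx1, 7 of the 12 stood in a single run of 14 bases. Over all 22350 promoters of this length the median was 11 (quartiles 3 and 23), and 95.1% held at least 1. The Pitx1 promoter held 30, that of Pitx3 19 and that of Rax 4. The number of CG dinucleotides did not order the genes by what remained on them, since Phox2a and Pitx1 had the same number.

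The first question was which of the genes lay under H3K27me3 in the reference line. In K27R, the start sites of 6 of the 7 genes lay in a peak, where 30.1% of all protein-coding start sites did. Gsc was the exception. The same 6 start sites lay in K27M peaks (9.02% of all genes), and 5 lay in EZHIP peaks (7.73% of all genes), Phox2a having been without one. Among genes whose start site lay in a K27R peak, 29.9% also had it in a K27M peak and 25.6% in an EZHIP peak. In this list of regulators, chosen with earlier results of these data known, the counts were 6 of 6 and 5 of 6. Of the 17 other paired-like genes with a start site in a K27R peak (described below), 14 had it in a K27M peak and 14 in an EZHIP peak. Start sites in both inhibitor lists were found for 5 of the 7 genes and for 6.6% of all genes.

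**Figure D1:**
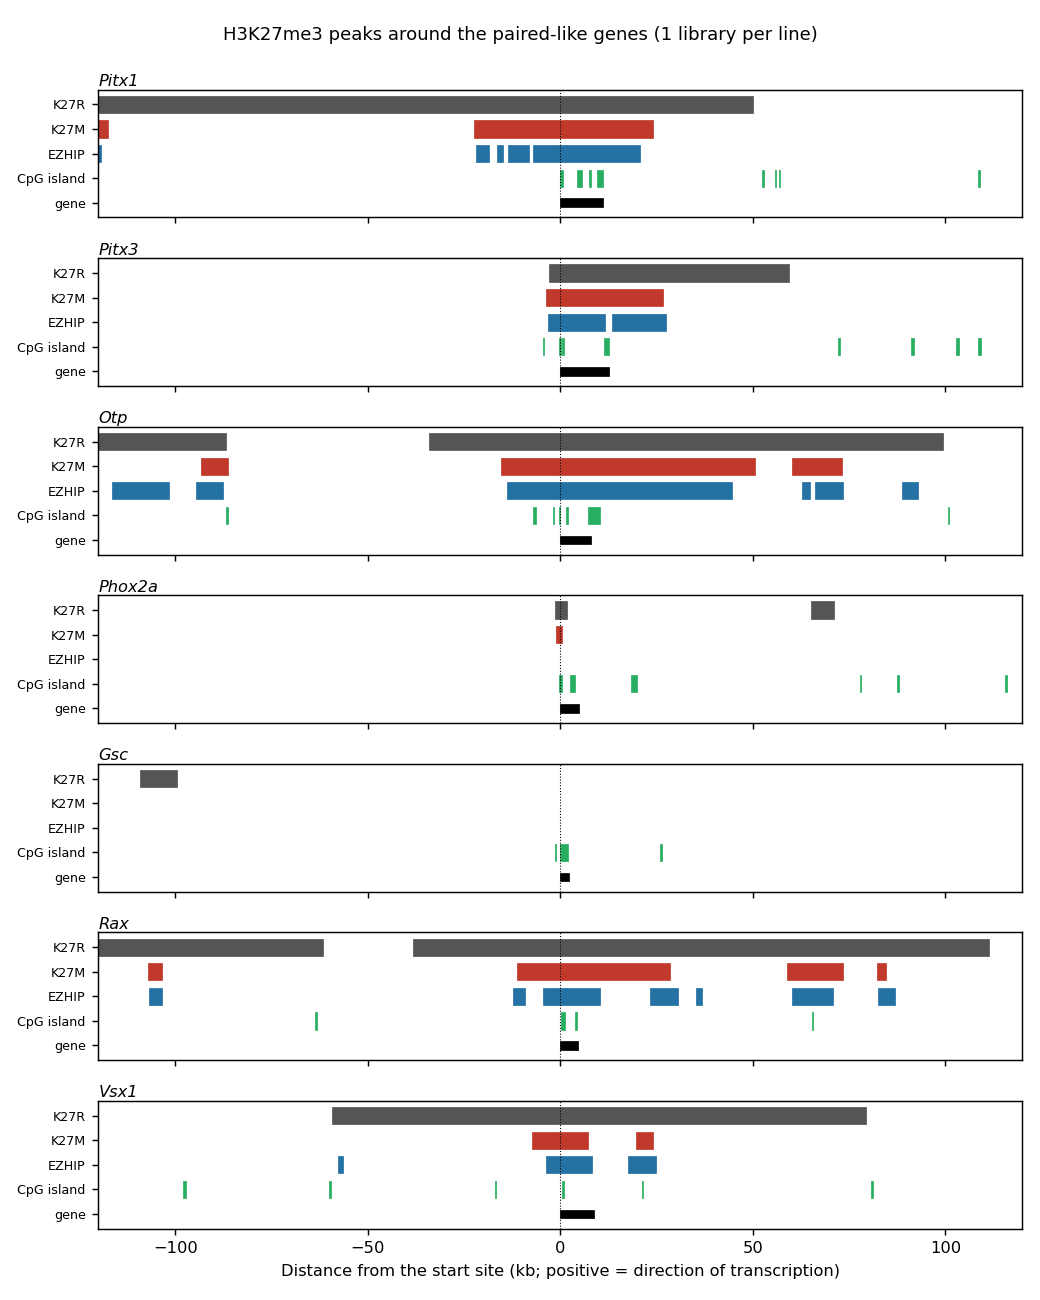
Peaks of each list (rows K27R, K27M and EZHIP), CpG islands and the gene itself, drawn for each of the 7 genes by distance from its start site in kb, with transcription running to the right. The dark K27R bars span far beyond the genes at Pitx1, Otp, Rax and Vsx1, the K27M and EZHIP bars sit around the start sites, Phox2a has only narrow bars and Gsc has none within 50 kb.

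How much of the surrounding DNA was under peaks was measured as the covered length within 50 kb on each side of the start site, out of 100 kb. Over all protein-coding genes the median was 14.8 kb in K27R and 0 in K27M and EZHIP. The 7 genes had medians of 84.2 kb (K27R), 30.4 kb (K27M) and 27 kb (EZHIP). In both inhibitor lists Otp came first and Pitx1 next. K27M then had Rax before Pitx3, and EZHIP had Pitx3 before Rax. Vsx1 followed in both. Phox2a and Gsc came last, with 1.6 kb and 0 in K27M and 0 each in EZHIP. Peak ends fell on a grid of 200 bp, and without replicates it cannot be said which neighbours in these orders differ beyond their spread.

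**Figure D2:**
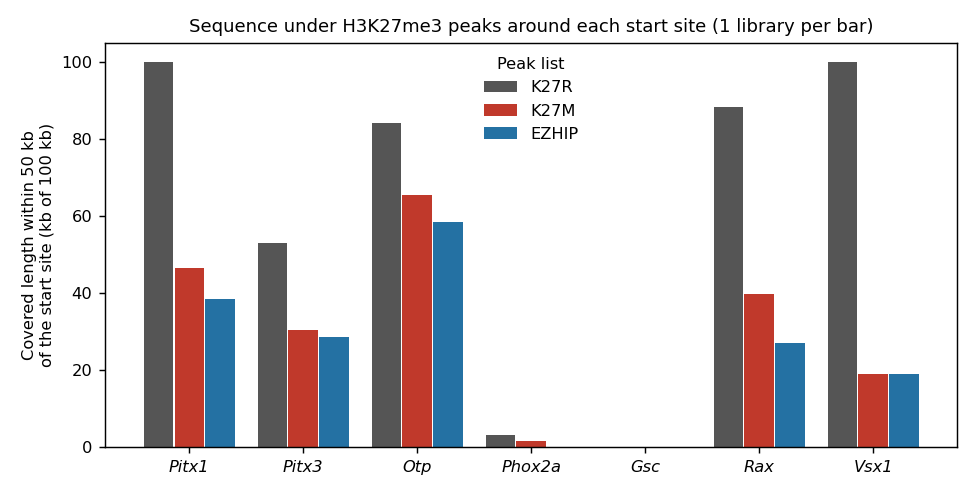
Covered length within 50 kb on each side of the start site (vertical axis, kb of 100 kb) for each gene in the K27R, K27M and EZHIP lists; each bar is 1 library and carries no error. The K27M and EZHIP bars are shorter than the K27R bar at all 6 genes with a K27R peak, and Gsc has no bar because its value is 0 in all 3 lists.

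The Pitx genes were considered first. Pitx1, a regulator of hindlimb identity and of the pituitary, lies at chr13:55926415-55937553 on the minus strand (ENSMUSG00000021506.6; 4 exons). A K27R peak of 225.2 kb (chr13:55887601-56112800) held the whole gene and reached 175.2 kb upstream of its start site. In K27M a peak of 46.4 kb (chr13:55913601-55960000) remained over the start site, and in EZHIP one of 27.8 kb (chr13:55916801-55944600), inside the K27M peak. All 4 exons were under both. Within 50 kb, peaks covered 99.95 kb in the reference, against 46.4 kb under K27M and 38.4 kb under EZHIP.

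The peaks as called differed in form between the inhibitor lists on the upstream side of Pitx1. There the K27M peak ran unbroken for 22.4 kb, while the EZHIP peak over the start site ended after 7.05 kb. Separate EZHIP peaks of 5.4, 1.6 and 3.6 kb followed, all inside the K27M peak. The gaps between them were shorter than any in the K27M list, where the shortest was 5200 bp. The number of pieces can therefore not be compared here. Far upstream, 117.4 kb from the start site, K27M had a further peak of 13.8 kb, and EZHIP had one of 12.6 kb at 119.4 kb. No CpG island lay in either of these distant peaks, and no other protein-coding start site lay in the K27R peak. A last EZHIP peak of 6.6 kb at 142.4 kb had no K27M counterpart.

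Pitx3, which acts in midbrain dopamine neurons and in the lens, lies at chr19:46210175-46222865 on the minus strand (ENSMUSG00000025229.9; 5 exons). Its K27R peak of 62.4 kb (chr19:46163401-46225800) reached only 2.94 kb upstream of the start site and 59.5 kb downstream. The K27M peak of 30.4 kb (chr19:46196201-46226600) extended 0.8 kb beyond the upstream edge of the K27R peak. In EZHIP the same stretch held 1 of 14.6 kb at the start site (chr19:46211401-46226000) and another of 14.0 kb downstream (chr19:46195401-46209400).

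The gap between these EZHIP peaks, of 2.0 kb, held the last 1.23 kb of Pitx3, with its last exon. Gaps this short did not occur in the K27M list, in which the shortest distance between neighbouring peaks was 5200 bp, against 1200 bp in EZHIP, so that the number of separate peaks is not comparable between them. Within 50 kb of the Pitx3 start site, K27R covered 52.9 kb, K27M 30.4 kb and EZHIP 28.6 kb. The start site of Elovl3, a fatty acid elongase gene next to Pitx3, lay in the same K27R peak and was under peaks in both inhibitor lists.

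Otp, a regulator of neuroendocrine neurons of the hypothalamus, kept the longest residual peaks of the 7 genes in both inhibitor lists. It lies at chr13:95645582-95653636 on the plus strand (ENSMUSG00000021685.9; 3 exons). Its K27R peak spanned 133.6 kb (chr13:95611401-95745000). The K27M peak over the start site spanned 66.0 kb (chr13:95630201-95696200), and the EZHIP peak spanned 58.4 kb (chr13:95631801-95690200), with its ends 1.6 and 6.0 kb inside those of K27M. Of the window, 84.2 kb was covered in K27R, while K27M left 65.4 kb and EZHIP 58.4 kb. These residual lengths exceeded those of 99.2% of all genes in K27M and of 99.4% in EZHIP. All 5 CpG islands of the K27R peak lay under these peaks, although the start site itself was 0.065 kb from the nearest island.

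Rax, which is needed for the eye field and for retinal progenitors, lies at chr18:66094293-66098743 on the minus strand (ENSMUSG00000024518.3; 3 exons). Its K27R peak spanned 149.6 kb (chr18:65987401-66137000). The residual peak over the start site spanned 39.6 kb in K27M (chr18:66070401-66110000) and 15.0 kb in EZHIP (chr18:66088401-66103400). Among the 5 of the 7 genes with a start site in both lists, this was the largest difference in width between the peaks as listed. Joined across gaps of at most 10000 bp, the peaks at Otp would differ more. The K27M peak there would take in the next one downstream, and the EZHIP peak at Rax would widen. As at Pitx1, EZHIP had separate peaks beside it. Those of 3.0 kb upstream and 7.4 kb downstream overlapped the K27M peak, and that of 1.6 kb downstream did not. Cover within 50 kb came to 88.3 kb in the reference list, 39.6 kb under K27M and 27 kb under EZHIP.

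Within the same K27R peak, Grp (gastrin-releasing peptide) had its start site under a peak in both inhibitor lists and Cplx4 (a complexin of retinal synapses) in neither. The K27M peak near Grp spanned 14.4 kb, starting 58.9 kb downstream of the Rax start site, and the EZHIP peak there spanned 10.6 kb, starting at 60.1 kb.

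Vsx1, a gene of retinal bipolar cells, lies at chr2:150506438-150515096 on the minus strand (ENSMUSG00000033080.7; 5 exons). Its whole window was under a single K27R peak of 138.6 kb (chr2:150435801-150574400). In both inhibitor lists 19 kb of the window was covered. The peaks over the start site spanned 14.4 kb in K27M (chr2:150508001-150522400) and 11.8 kb in EZHIP (chr2:150507001-150518800). They were offset from each other, since the EZHIP peak reached 1.0 kb further into the downstream side and ended 3.6 kb short on the upstream side. A further peak downstream, of 4.6 kb at 19.5 kb from the start site in K27M and of 7.2 kb at 17.5 kb in EZHIP, lay over the start site of Acss1, which encodes a mitochondrial acetyl-CoA synthetase. Of the 6 genes with a K27R peak, Vsx1 was the only one where both inhibitor lists left the same covered length.

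Phox2a, which specifies noradrenergic and autonomic neurons, differed from the other genes in the reference line. It lies at chr7:108966827-108971680 on the plus strand (ENSMUSG00000007946.8; 3 exons). Its K27R peak spanned 3.0 kb (chr7:108965401-108968400), where the median peak over a protein-coding start site spanned 96.8 kb (quartiles 39.6 and 223.4 kb). The peak held exon 1 and 32.4% of the gene. In K27M a peak of 1.6 kb remained (chr7:108965601-108967200) that reached 0.374 kb past the start site, and in EZHIP the nearest peak was 208.4 kb upstream. Of all genes with a start site in a K27M peak, 26.7% had none in EZHIP. The K27M call at Phox2a was lost when peaks under 2000 bp were dropped or 1000 bp were trimmed from each end of every peak.

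Gsc (goosecoid), a gene of the gastrula organizer and later of craniofacial mesenchyme, had no peak in any list. It lies at chr12:105709419-105711537 on the minus strand (ENSMUSG00000021095.3; 3 exons). The nearest K27R peak, of 9.6 kb, lay 99.7 kb upstream of the start site and overlapped no protein-coding gene. The nearest peak was 860.7 kb away in K27M and 625.9 kb away in EZHIP. The gene had a CpG island of 2.14 kb over its start site, the longest island over a start site among the 7 genes. Its ratio of observed to expected CG over 1000 bases around the start site, 0.927, exceeded that of 93.9% of genes.

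The shape of the residual peaks was then compared across the genes. Counted in steps of 1 kb, at least 5 of the 7 genes were under a K27R peak from 3 kb upstream to 50 kb downstream of the start site. In K27M this stretch ran from 4 kb upstream to 7 kb downstream, and in EZHIP from 3 kb upstream to 8 kb downstream. At least 4 genes were under a peak from 34 kb upstream to 59 kb downstream in K27R, from 7 kb upstream to 24 kb downstream in K27M, and from 4 kb upstream to 10 kb downstream in EZHIP. These stretches are the unbroken runs around the start site, and the counts rose again further downstream. Steps centred 19.5 to 23.5 kb downstream had 5 genes in K27M. In EZHIP, 4 genes were covered at 17.5 to 20.5 kb and at 23.5 to 24.5 kb, and in K27R 4 genes at 65.5 to 70.5 kb.

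**Figure D3:**
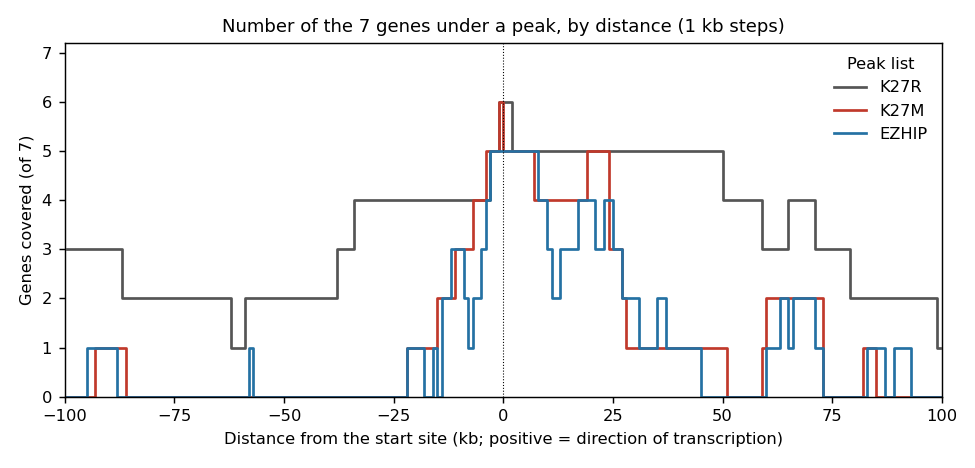
Number of the 7 genes under a peak (vertical axis) in each 1 kb step from 100 kb upstream to 100 kb downstream of the start site (horizontal axis), for the K27R, K27M and EZHIP lists. K27R stays at 4 or more genes from 34 kb upstream to 59 kb downstream, while K27M and EZHIP have their highest counts, 6 and 5, next to the start site.

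The reach of the peaks to each side of the start site was then compared. The EZHIP peak over the start site reached further downstream than upstream at 5 of 5 genes, where 63.0% of all genes with a start site in an EZHIP peak showed this. The reach was 20.8 kb downstream against 7.05 kb upstream at Pitx1, 11.5 against 3.14 kb at Pitx3, 44.6 against 13.8 kb at Otp, 10.3 against 4.66 kb at Rax and 8.1 against 3.7 kb at Vsx1. At Pitx1 and Rax this order depended on where EZHIP peaks were split. A separate peak of 3.6 kb began 18.4 kb upstream at Pitx1, and one of 3.0 kb began 9.26 kb upstream at Rax. Joined across gaps of at most 10000 bp, the EZHIP peaks at Pitx1 and Rax would reach further upstream than downstream. In K27M the peak reached further downstream at 4 of 6 genes, near the share of all genes with a start site in a K27M peak (60.6%). Vsx1 and Phox2a were the exceptions. Vsx1, at 7.10 kb downstream and 7.30 kb upstream, and Pitx1, at 24.0 kb downstream and 22.4 kb upstream, were nearly even. In K27R the peak reached further downstream at 5 of 6 genes (50.6% of all genes with a start site in a K27R peak), with Pitx1 as the exception.

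The K27R peaks over the 6 start sites spanned 712.4 kb in sum, which held 19 CpG islands. K27M peaks covered 245.4 kb of this (34.4%) and EZHIP peaks 220.2 kb (30.9%). Over all 3623 K27R peaks with a protein-coding start site, 12.9% and 9.1% of the length was covered. By gene, the share left in K27M was 59.0% at Otp, 53.3% at Phox2a, 47.4% at Pitx3, 37.6% at Rax, 26.7% at Pitx1 and 13.7% at Vsx1. In EZHIP, the share was 53.9% at Otp, 45.5% at Pitx3, 28.1% at Rax, 25.6% at Pitx1, 14.6% at Vsx1 and 0% at Phox2a. Vsx1 was thus the gene nearest to the share over all such peaks. Within 50 kb of the start site, Otp had 77.7% of its K27R cover in K27M and 69.4% in EZHIP, and Vsx1 19% in each. For genes with a start site in K27R and in the inhibitor list, the medians were 25.8% (quartiles 13.0% and 52.1%) for K27M and 20.2% (quartiles 10.4% and 39.9%) for EZHIP.

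The inhibitor lists overlapped over 195.4 kb of these regions, which was 88.7% of the EZHIP length and 79.6% of the K27M length. The EZHIP peak over the start site lay wholly inside the K27M peak at Pitx1, Pitx3, Otp and Rax, and crossed its edge at Vsx1. K27M had 11 peaks in the regions, with a median width of 14.4 kb, and EZHIP had 21, with a median width of 7.2 kb. Joining peaks separated by at most 10000 bp gave 9 and 13. An overlap with K27M was found for 17 of the 21 from EZHIP, and the other 4 summed to 13.6 kb. Shares of overlap over the whole lists were not computed, so this overlap cannot be called particular to these genes. Of the 1728 genes with a start site in an EZHIP peak, 1476 also had it in a K27M peak.

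CpG islands within the regions were then counted. K27M peaks lay over 18 of the 19 islands and EZHIP peaks over 17. Over the genome, 45.2% of the 6823 islands in K27R peaks were under a K27M peak and 38.2% under an EZHIP peak. Peaks without an island were also present, 3 of 11 in K27M and 14 of 21 in EZHIP, and 10 of these 14 overlapped a K27M peak. Some of the 14, as at Pitx1 and Pitx3, were set off by gaps shorter than 5200 bp, the shortest in the K27M list. These counts are therefore not comparable between the lists. The shares over all peaks of each list were not computed. The start site itself lay in an island at Pitx1, Pitx3, Phox2a and Gsc and within 0.41 kb of one at Otp, Rax and Vsx1. Among genes with a start site in a K27R peak, a K27M peak covered it in 52.1% of those with an island there and 17.8% of those without. For EZHIP these shares were 44.0% and 15.6%. Otp, Rax and Vsx1, with no island at the start site, were nonetheless covered in both lists, and Phox2a, with one, was not covered in EZHIP.

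The covered length within 50 kb was larger in K27M than in EZHIP at 5 of the 7 genes, equal at Vsx1, and 0 in both at Gsc. Among the 5 with a start site in both lists it was larger in K27M at 4, where 73.0% of all genes with a start site in both lists had the larger value in K27M, so that the members were near the background. The differences were 8 kb at Pitx1, 1.8 kb at Pitx3, 6.98 kb at Otp, 12.6 kb at Rax and 1.6 kb at Phox2a. Joining peaks across at most 10000 bp turned the order at Pitx3, and over the gene bodies alone only Pitx3 and Phox2a had more cover in K27M.

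The other paired-like homeobox genes, 23 in a list fixed by name, were read the same way. Their start sites lay in peaks of K27R at 17 genes (73.9%), of K27M at 14 (60.9%) and of EZHIP at 14 (60.9%), with 13 in both inhibitor lists. Their median covered lengths within 50 kb were 67.4 kb (K27R), 20.2 kb (K27M) and 9.6 kb (EZHIP). Uncx and Dmbx1 held the most, with 90.6 and 100 kb in K27M and 78.0 and 81.1 kb in EZHIP, above the values of Otp.

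Gsc2 had 53.6 kb covered in the reference, with 11.6 kb under K27M and 16.2 kb under EZHIP, where Gsc had none. Alx1, Drgx, Esx1, Mixl1 and Otx2 also had a residual peak over the start site in both lists, with 5.4 kb (Mixl1) to 51.4 kb (Otx2) in K27M and 5.4 kb (Mixl1) to 31.4 kb (Otx2) in EZHIP. Alx4 had such a peak in K27M alone, with 13.4 kb covered, and Hesx1 in EZHIP alone, with 2.4 kb. Of the 13 genes with a residual peak in both lists, 11 had more covered length in K27M, Gsc2 had more in EZHIP, and Mixl1 had 5.4 kb in each. A start site in a K27R peak and in neither inhibitor list was found at 2 genes, of which Crx is 1. Prrx1, Prrx2 and Shox2, which act in limb and craniofacial mesenchyme, had no K27R peak within 50 kb, as Gsc did not.

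**Figure D4:**
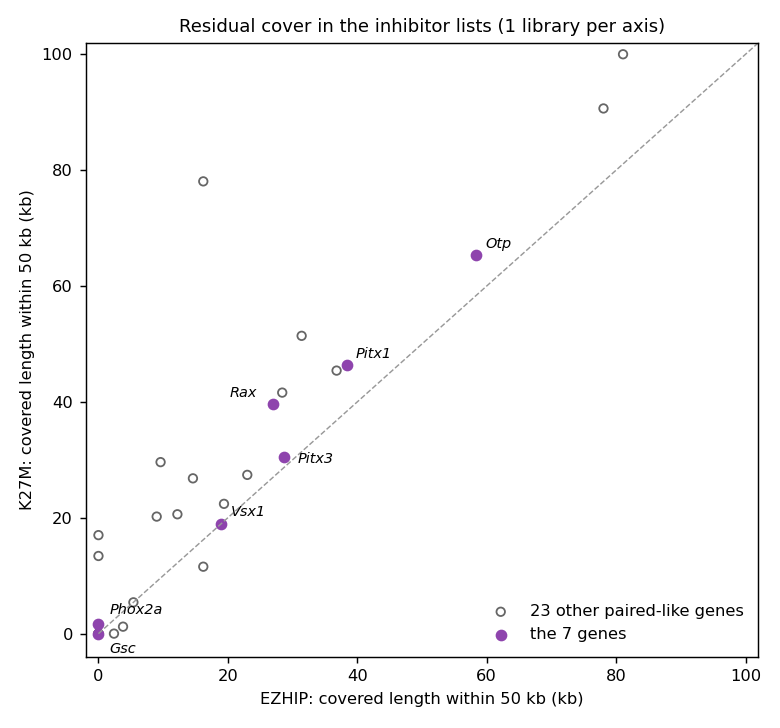
Covered length within 50 kb of the start site in EZHIP (horizontal axis, kb) against K27M (vertical axis, kb), 1 library per axis, with filled points for the 7 genes and open points for the 23 other paired-like genes; the dashed line marks equal values. Pitx1, Otp, Rax, Pitx3 and Phox2a lie above the line and Vsx1 on it, and the 2 open points beyond Otp in both lists are Uncx and Dmbx1.

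Finally, the genes most like each member were sought over all protein-coding genes, by the sum of the absolute differences in covered length within 50 kb over the 3 lists. For Rax these were Dlx6 (3.46 kb in sum) and Prdm13 (4.43 kb), and for Otp Nrxn2 (6.5 kb) and Tmem181b-ps (6.89 kb). For Phox2a they were Slitrk1 (0.6 kb) and 4931408C20Rik (1.4 kb), and for Pitx1 Cib4 (0.44 kb) and Hif1an (1.25 kb). The closest to Pitx3 was Gbf1 (4.18 kb) and the closest to Vsx1 was Acss1 (0 kb), both of which are neighbours whose windows overlap those of the members, followed by Tmem151b (5.72 kb) and Mybbp1a (1.0 kb). Ties were ordered by name, and 5 genes lay as close to Pitx1 as Hif1an did or closer, and 3 as close to Vsx1 as Mybbp1a. With 3 values per gene this likeness is a description of cover only.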

How the data were processed

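H3K27me3 was profiled in MEFs by ChIP-Seq after MNase digestion of crosslinked chromatin to mononucleosomes, followed by sonication. By the study's methods, the authors aligned reads to mm9 with bowtie1 (version 1.0.0 in the submitters' processing notes) and called broad peaks with MOSAiCS-HMM, for which the methods give a maximum gap of 10000 bp. Neighbouring peaks lay as close as 5200 bp in K27M and 1200 bp in EZHIP. The deposited lists give chromosome, start and end of each peak on a grid of 200 bp, without height, score or p-value. Whether spike-in scaling entered the calls is not given in the sources used here. The lists held 12845 (K27R), 3736 (K27M) and 4992 (EZHIP) peaks.

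Groups were taken from sample titles. The start site was the 5′ end of the gene in GENCODE vM1 (NCBIM37, mm9), and a start site was called in a peak when they shared 1 bp. Covered length was summed over 50 kb on each side. All comparisons are descriptive, with no p-value, since each line had 1 library. CpG islands came from a scan of the mm9 genome that added 17 for each CG, subtracted 1 for any other base and kept segments longer than 200 bp, with a G+C content of 50% or more and a ratio of observed to expected CG above 0.6 (27077 islands). Of the 23 other genes, 22 matched by symbol and Drgx through its RefSeq synonym. The genes and lists were chosen with earlier results of these data known. Named were all 7 genes, those of the 23 others with a start site in an inhibitor list, neighbours within the same K27R peak and the 2 genes most alike in cover. Some of the 23 enter the counts and are not reported here by name. Python 3.11.15, numpy 2.4.6 and pandas 2.3.3 were used, and interval and island code was tested on simulated data.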

Additional observations from a re-analysis of the deposited data

How the results depend on the processing

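Of 60 recomputed values, 51 were within 1.5 times the value reported, and the other 9 are the 8 values of window and gene body below and the number of EZHIP peaks after merging. The start site counts ranged from 5 to 6 in K27R and K27M and were 5 in EZHIP under every alternative. Phox2a was the gene lost, with peaks under 5000 bp dropped in K27R, and with peaks under 2000 or 5000 bp dropped or 1000 bp trimmed from each end in K27M. Median covered length followed the window: within 10 kb K27R had 20 kb, K27M 14.4 kb and EZHIP 13.1 kb, within 100 kb K27R had 138.6 kb, and over the gene body K27R had 8.06 kb, K27M 7.10 kb and EZHIP 8.06 kb. More cover in K27M than in EZHIP was found at 2 genes over the gene body, and at 4 or 5 otherwise. Merging of peaks up to 10000 bp apart, applied to the number of residual peaks after the data were examined, gave 13 EZHIP peaks in place of 21, and raised the EZHIP median to 30.6 kb against 30.4 kb in K27M. No paired analysis was possible because each line had 1 library.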
